A study of Mus musculus with 23 samples.

Results

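Knockdown (KD) of Mlx was examined in mouse zygotes by comparing 3 RNA-seq libraries from siMlx zygotes with 3 from siCtrl zygotes, 6 of the 23 libraries of the series, as the sample labels give them. Oocytes at the germinal vesicle stage, in which meiosis is arrested, were injected with a mix of siRNAs against Mlx or with an siRNA against a random sequence. After maturation in vitro they were fertilized. By the labels all embryos were of the strain B6D2F1 (C57BL/6xDBA/2), whereas the study's methods give B6D2F1 oocyte donors and sperm of C57BL/6 males. All had passed through the same injection, culture and removal of the zona pellucida, and were collected as late zygotes, at 14 h post fertilization by the labels. The labels describe fertilization by incubation with sperm, whereas the study's methods describe sperm injection and a later collection. The label field that holds the siRNA name is headed overexpression, and the siRNAs are taken here as knockdown, as in the study's methods. Zygotes injected with siRNAs against Etv5 or Rfx1, 3 libraries each, are given as levels, and siEtv5 zygotes also as an alternative control. The sources used here do not say whether the replicate libraries came from separate embryo collections, so a p-value here reflects the spread among these 6 libraries, and some of that spread may be technical.

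MLX is a basic helix-loop-helix leucine zipper protein that pairs with the Mondo factors MLXIP and MLXIPL and binds E-box elements, whose core is CACGTG. MLXIP and MLXIPL respond to glucose metabolites, and the pairs are best known for inducing Txnip and genes of glycolysis and fat synthesis in liver and cultured cells. The zygote inherits most of its mRNA from the oocyte. Transcription from the embryo's own genome begins at a low level in the zygote, and large-scale activation follows at the 2-cell stage while maternal mRNA is cleared. An siRNA present from the oocyte onward therefore acts on the maternal pool and on the first embryonic transcripts.

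FPKM counts fragments per kilobase of transcript, scaled to the fragments mapped in a library, and a gene's value is the sum of its transcripts. Unless the text says otherwise, levels are FPKM after rescaling of the 6 libraries to a common median ratio. Levels of siEtv5 and siRfx1 zygotes lie outside this rescaling, so they compare with the 6 libraries only roughly unless all are given as deposited. The libraries held 484 to 708 Mb of aligned bases in siMlx zygotes and 580.2 to 756 Mb in siCtrl zygotes. Genes at 1 FPKM or more, before rescaling, numbered 8354 to 8738 in siMlx zygotes and 8961 to 9350 in siCtrl zygotes, so that the groups did not overlap (p = 0.1, two-sided, by an exact permutation test, which can give no smaller p with 3 against 3). Across 8886 genes, the correlation of log2 levels was 0.920 to 0.956 between siMlx libraries and 0.893 to 0.936 between siMlx and siCtrl libraries. Replicates 2 and 3 of siMlx correlated at 0.920, less than siMlx replicate 3 did with each siCtrl library (0.929 to 0.932). The correlation was 0.951 to 0.967 between siCtrl libraries but 0.901 to 0.943 between siEtv5 libraries, the alternative control. Of 10 oocyte and zygote markers, 9 or 10 were at 1 FPKM or more in every library. Cumulus and granulosa markers summed to 2.41 to 8.23 FPKM over 14 genes in siMlx zygotes and to 7.28 to 11.7 FPKM in siCtrl zygotes, as deposited. Amh, Inha, Inhba, Cyp11a1, Pgr, Lhcgr and Foxl2 were listed at 0 in all 6 libraries. As deposited, Cyp19a1 was 1.71 to 6.64 FPKM in siMlx and 4.83 to 8.45 FPKM in siCtrl zygotes. Kitl was 0.699 to 0.963 FPKM in siMlx and 1.28 to 2.76 FPKM in siCtrl zygotes. Fshr, Has2, Ptx3, Tnfaip6 and Amhr2 were each above 0 in some libraries but below 1 FPKM. Of 8 sperm markers, Prm2 alone exceeded 1 FPKM, with a summed marker level of 22.7 to 24.8 FPKM in siMlx zygotes and 21.5 to 34.5 FPKM in siCtrl zygotes, as deposited.

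The targeted transcript was low in the control and lower after KD. As deposited, Mlx was 0.469, 0 and 0.442 FPKM in siMlx zygotes, against 1.84, 3.63 and 4.25 FPKM in siCtrl zygotes. Every siMlx library was below every siCtrl library, and siMlx replicate 2 was listed at 0. The test across all genes did not reach the threshold (log2 fold change -1.52, SE 0.34, limma adjusted p = 0.053), and the exact permutation test gave its smallest p of 0.1. Zygotes with other siRNAs were near the control, at 4.18, 3.61 and 2.46 FPKM as deposited in siEtv5 zygotes and 2.69, 1.86 and 4.64 FPKM in siRfx1 zygotes. Since each library was made from embryos in bulk, fewer embryos with the transcript and less of it per embryo cannot be told apart.

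In mm9, Mlx occupies chr11:100948604-100953521 on the plus strand, and only the isoform with the longest first exon, 8 exons in all, was given reads. The last exon held all of the coverage in the siMlx libraries and siCtrl replicate 1, and most of it in the other siCtrl libraries. It spans 1099 bases with the 3′ end of the gene and had 0.443, 0 and 0.385 reads per base in siMlx zygotes and 1.92, 3.46 and 4.58 reads per base in siCtrl zygotes. Exon 1 was covered in siCtrl replicates 2 and 3, at 3.17 and 2.84 reads per base, and exon 7 in siCtrl replicate 3, at 3.11. Exons 2 to 6 had no coverage in any of the 6 libraries. In aligned bases over the whole transcript, the level corresponds to 487, 0 and 423 bases in siMlx zygotes and 2113, 4558 and 6344 bases in siCtrl zygotes, so that the KD rests on few fragments. The last 67 bases of Mlx overlap the 3′ exon of Psmc3ip, a meiotic recombination gene on the minus strand, and reads from the pair cannot be told apart there. Psmc3ip itself was 1.59, 0.471 and 1.24 FPKM in siMlx zygotes, against 0.672, 1.15 and 3.07 FPKM in siCtrl zygotes, and the groups overlapped.

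**Figure D1:**
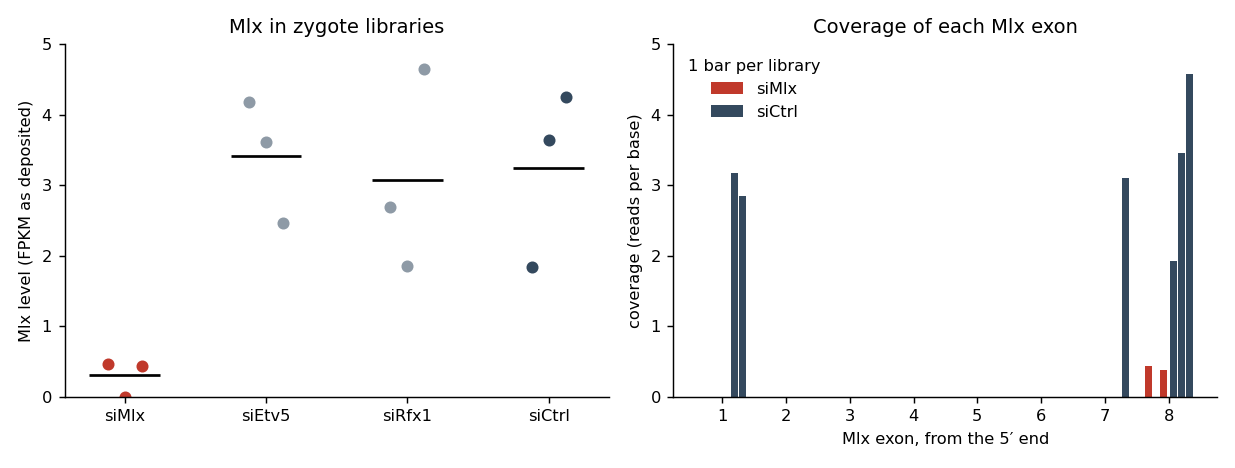
Mlx in zygotes. Left, FPKM as deposited in each library (points) with the group mean (line), for siMlx, siEtv5, siRfx1 and siCtrl zygotes; the 3 siMlx points, 0 to 0.469 FPKM, lie below all others. Right, coverage in reads per base of each of the 8 Mlx exons, 1 bar per library; only exons 1, 7 and 8 have any.

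Among 8934 genes tested, 101 were higher and 91 lower in siMlx than in siCtrl zygotes with a fold above 2 and an adjusted p under 0.05 (2.15% of those tested, 1.13% higher and 1.02% lower). Without the fold minimum, 113 genes (1.26%) rose and 120 (1.34%) fell, 2.61% together, and these verbs are used below only of genes that passed this threshold. Over all genes tested, log2 fold changes had a median of 0.03. All 3 siMlx libraries were above all 3 siCtrl libraries for 14.5% of the genes tested and below them for 17.3%. The lowest adjusted p was 0.0068 (limma). The count of 192 was 2, 261 and 49 without siMlx replicate 1, 2 and 3, and 27, 9 and 5 without siCtrl replicate 1, 2 and 3. Of the 192 genes, 163 kept the call in at least 1 of these 6 fits, 42 in at least 2 and 16 in at least 3. Eif3e kept it in 4, Gatad2a in 5 and Degs2 in all 6, the last named here after its values were seen. The direction was the same in each such fit for every called gene with a value. Each fit shares all but 1 library with the main fit, where the genes were chosen for large differences, so this was nearly fixed in advance. With siEtv5 zygotes in place of siCtrl, 184 of 190 called genes with a value had the same direction and 110 of those a fold above 2, but limma called none of them (over all 8792 genes tested in that fit, 1 was called and 1244 had an unadjusted p under 0.05). That fit uses the same 3 siMlx libraries from which the genes were called, so a shared direction was favored in advance and is no independent check. The share with the same direction over all genes was not computed. The scaling set the balance: with the FPKM as deposited, 71 genes were higher and 612 lower, with a median shift of -0.27 over all genes, and all changes below are relative to the rescaled median.

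**Figure D2:**
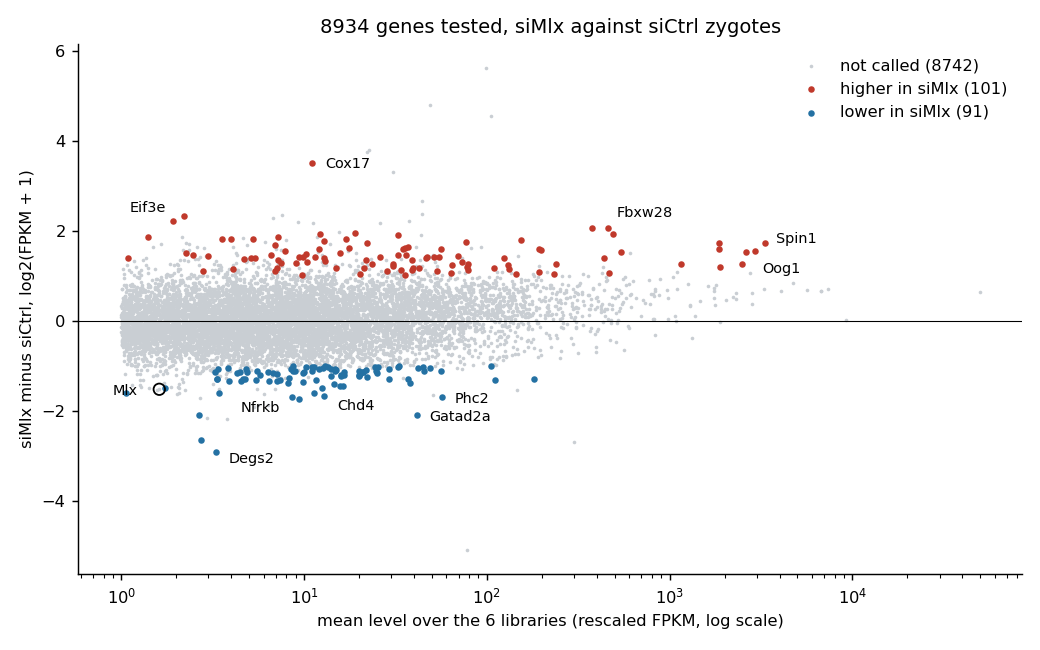
Log2 difference between siMlx and siCtrl zygotes against the mean level over the 6 libraries (rescaled FPKM, log axis) for the 8934 genes tested. Red points mark the 101 genes called higher, blue points the 91 called lower, and the open circle marks Mlx, which was not called; in the quintile of genes with the highest levels, 53 were called higher and 14 lower.

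None of the other genes of the network that MLX belongs to passed the threshold. Of 13 MLX, Mondo and MAX network genes, 8 were tested, with a median log2 fold change of 0.28. Mlxip, which encodes the Mondo partner also called MondoA, was 43.8, 53.4 and 37.2 FPKM in siMlx zygotes, against 20.9, 26.1 and 26.5 FPKM in siCtrl zygotes. All siMlx libraries were higher, with a log2 fold change of 0.84 (limma adjusted p = 0.067). Mlxipl, which encodes ChREBP, was 6.53, 5.18 and 7.85 FPKM in siMlx zygotes, against 8.26, 10.5 and 9.61 FPKM in siCtrl zygotes, so that every siMlx library was lower, with a log2 fold change of -0.48 (limma adjusted p = 0.21). Max encodes the shared partner of MYC and the MXD repressors and had 89.03, 69.6 and 98.8 FPKM in siMlx zygotes, against 74.04, 26.4 and 88.5 FPKM in siCtrl zygotes, with overlapping groups. Mxd4 encodes a repressor of this network and was 164, 181 and 118 FPKM in siMlx zygotes, against 48.2, 103 and 93.9 FPKM in siCtrl zygotes, with a log2 fold change of 0.96 (limma adjusted p = 0.11). Mxd1, Mnt and Mga had values of 0.57 (limma adjusted p = 0.35), -0.02 (limma adjusted p = 0.97) and -0.20 (limma adjusted p = 0.66). The other 5 members lay under the mean of 1 FPKM needed for the test. Mycl1, Mycn, Mxi1 and Mxd3 were each below 1 FPKM in every library, and Mxd3 was listed at 0 in all 6. Myc was 0.875, 1.74 and 1.96 FPKM in siMlx zygotes, against 0, 0 and 0.304 FPKM in siCtrl zygotes as deposited.

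Other E-box binding factors included 2 falls. Usf1 and Usf2 encode the upstream stimulatory factors, helix-loop-helix leucine zipper proteins that bind the same CACGTG core. Usf1 (chr1:173341812-173348873, plus strand) was 4.502, 3.502 and 2.67 FPKM in siMlx zygotes, against 7.76, 12.2 and 11.7 FPKM in siCtrl zygotes (log2 fold change -1.34, SE 0.25, limma adjusted p = 0.041). Usf2 (chr7:31730267-31741822, minus strand) was 9.61, 7.17 and 7.33 FPKM in siMlx zygotes, against 20.6, 20.03 and 19.5 FPKM in siCtrl zygotes (log2 fold change -1.23, SE 0.20, limma adjusted p = 0.032). For both, the siMlx and siCtrl libraries did not overlap. On a scale fitted over all 12 zygote libraries, Usf1 was 25.8, 7.41 and 12.02 FPKM in siEtv5 zygotes and 8.71, 10.3 and 15.2 FPKM in siRfx1 zygotes, and Usf2 was 26.7, 16.2 and 17.8 FPKM in siEtv5 zygotes and 10.8, 11.9 and 10.2 FPKM in siRfx1 zygotes. Of 16 genes in the list of USF, SREBP, clock and MiT factors, 11 were tested, 0 rose and 2 fell, with a median of -0.09.

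Known targets of the Mondo factors did not pass the test. Txnip encodes the thioredoxin-binding protein that limits glucose uptake and was 42.2, 31.7 and 34.6 FPKM in siMlx zygotes, against 79.2, 72.8 and 59.2 FPKM in siCtrl zygotes (log2 fold change -0.94, SE 0.21, limma adjusted p = 0.052). The siMlx libraries were all lower, at 51.4% of the control mean, and Txnip overlaps Gm15441, so that reads of the pair could be mixed. With siEtv5 zygotes as the control its log2 fold change was 0.17. Only 6 of 23 listed targets were tested, with a median of -0.09. Thrsp, a lipogenic gene, had 0.84 (limma adjusted p = 0.058), Me1, the cytosolic malic enzyme, 0.77 (limma adjusted p = 0.15) and Acly, ATP citrate lyase, -0.50 (limma adjusted p = 0.3). Of 22 genes for glucose uptake and glycolysis, 14 were tested and none passed (median 0.05). Pkm, the pyruvate kinase gene, was nearest to the threshold at 25.2, 25.4 and 26.9 FPKM in siMlx zygotes, against 42.5, 46.6 and 53.3 FPKM in siCtrl zygotes (log2 fold change -0.85, SE 0.18, limma adjusted p = 0.051), without overlap between the groups. Slc2a1, the glucose transporter GLUT1, had -0.69 (limma adjusted p = 0.12).

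The E-box core stood near the start of a similar share of called and of all genes. RefSeq promoter windows of GRCm38.p6, which run from 250 bases before to 50 bases after the start of transcription, matched 7186 of the 8934 genes tested. CACGTG, which reads the same on both strands, stood in the window of 6 of 77 genes called higher (7.79%), 10 of 76 called lower (13.2%) and 853 of all 7186 (11.9%). It stood in 7.15% of all 32851 windows in the table. The spaced pair known as the carbohydrate response element was searched only as 2 exact CACGTG cores 5 bases apart. None of the 32851 windows held this form, so the search cannot tell the groups apart. Looser forms of the pair were not searched. The median GC content of the windows was 50.7% for genes called higher, 64.7% for those called lower and 60.7% for all tested. The core and 12 bases on each side are shown for Mlx itself and for the named genes that were called and hold it, with the core in capitals, to show how the bases next to the core vary among them.
Mlx: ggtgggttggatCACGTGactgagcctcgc
Phc2: ggctggagtgggCACGTGacactctccggt
Ptbp1: ctcagatggtatCACGTGcgtctactcatt
Clk2: agactcaacaaaCACGTGacaagctccgag
Mrps18c: gcagccccgggtCACGTGacttccggcccg
Atpif1: ccggctaaccacCACGTGaccgttctgcgc
The window of Mlx is chr11:101087238-101087267, + strand, with its core 40 bases before the start. Phc2 (chr4:128654633-128654662, + strand), Ptbp1 (chr10:79854375-79854404, + strand) and Clk2 (chr3:89164624-89164653, + strand) were called lower, with the core 57, 45 and 159 bases before the start. Mrps18c (chr5:100798584-100798613, + strand) and Atpif1 (chr4:132535552-132535581, - strand) were called higher, with the core 163 and 155 bases before it. A match shows only that the letters stand in the window, not that a factor binds there.

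Several of the named falls were chromatin regulators. Gatad2a (chr8:72430968-72520278, minus strand), which encodes the GATA zinc finger subunit p66-alpha of the NuRD deacetylase and remodeling complex, was 14.2, 16.2 and 14.5 FPKM in siMlx zygotes, against 61.1, 67.7 and 73.9 FPKM in siCtrl zygotes. This was 22.1% of the control mean, and the lowest siCtrl library was well above the highest siMlx library (log2 fold change -2.10, SE 0.18, limma adjusted p = 0.0068). The other knockdown zygotes lay between, at 17.5, 31.6 and 27.1 FPKM in siEtv5 zygotes and 24.6, 55.5 and 59.8 FPKM in siRfx1 zygotes. Chd4 (chr6:125046181-125080519, plus strand), the ATPase of NuRD, was 8.402, 8.11 and 7.42 FPKM in siMlx zygotes, against 22.2, 23.5 and 25.2 FPKM in siCtrl zygotes (log2 fold change -1.46, SE 0.18, limma adjusted p = 0.017). Its groups did not overlap, and it was 29.5, 13.2 and 29.2 FPKM in siEtv5 zygotes and 13.4, 12.998 and 15.8 FPKM in siRfx1 zygotes. Of 14 NuRD genes, 10 were tested, 0 rose and 2 fell, and 5 had every siMlx library below every siCtrl library, against 1 above. Over all genes tested, 17.3% were below in this way and 14.5% above. Per library, the median NuRD member lay at -0.68, -0.44 and -0.49 in siMlx zygotes, against -0.09, -0.00 and 0.13 in siCtrl zygotes on the log2 scale relative to the siCtrl mean. Mta3 and Mta1, alternative NuRD subunits, had -1.04 (limma adjusted p = 0.053) and -0.87 (limma adjusted p = 0.17). Rbbp7 and Hdac2 lay on the other side, at 0.59 (limma adjusted p = 0.15) and 0.50 (limma adjusted p = 0.36).

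Among Polycomb genes, Phc2, a subunit of the PRC1 complex, was 33.996, 21.3 and 24.2 FPKM in siMlx zygotes, against 80.4, 81.6 and 101 FPKM in siCtrl zygotes (log2 fold change -1.70, SE 0.23, limma adjusted p = 0.021). It was the 1 fall among 23 tested of 30, with a median of -0.42, and 10 of the 23 had all siMlx libraries below all siCtrl libraries (43.5%, against 17.3% of all genes tested). Suz12 and Eed, both core subunits of PRC2, had -0.79 (limma adjusted p = 0.088) and 0.82 (limma adjusted p = 0.07), values of opposite sign. Among SWI/SNF, INO80, SRCAP and ISWI remodelers, 3 of 34 tested fell and 0 rose (median -0.02). Nfrkb, an INO80 subunit, was 2.92, 4.41 and 4.03 FPKM in siMlx zygotes, against 15.2, 13.9 and 15.6 FPKM in siCtrl zygotes (log2 fold change -1.74, SE 0.21, limma adjusted p = 0.017). Mcrs1, another INO80 subunit that overlaps Kcnh3, was 2.83, 2.43 and 2.72 FPKM in siMlx zygotes, against 5.91, 6.91 and 8.53 FPKM in siCtrl zygotes, and Arid1a, the large subunit of the BAF form of SWI/SNF, was 31.1, 27.7 and 35.3 FPKM in siMlx zygotes, against 70.6, 62.2 and 65.8 FPKM in siCtrl zygotes. Their log2 fold changes were -1.14 (limma adjusted p = 0.041) and -1.06 (limma adjusted p = 0.039), and neither overlapped between groups. Wiz, a zinc finger partner of the G9a and GLP methyltransferases, fell by 1.17 on the log2 scale, the 1 change among 10 tested genes of H3K9 methylation. Kat8, the MOF acetyltransferase, was 11.6, 10.6 and 13.4 FPKM in siMlx zygotes, against 5.08, 5.53 and 6.097 FPKM in siCtrl zygotes, the 1 rise among 25 tested acetylation genes (log2 fold change 0.97 (limma adjusted p = 0.045)), and it overlaps Prss8. With siEtv5 zygotes as the control its value was -0.03. The acetylation list had a median of -0.34, or -0.19 with the trends on length and GC content removed. Of its 25 tested genes, 11 had every siMlx library below every siCtrl library and 2 above. These were 44% and 8%, against 17.3% and 14.5% of all genes tested. None of 13 tested lysine demethylases passed, although 8 had every siMlx library below every siCtrl library (61.5%, against 17.3% of all genes tested). Their median was -0.50, or -0.25 with the trends on length and GC content removed as described below. Their median transcript was 6267 bases, against 2700 bases for all genes tested. Kdm2a, which removes H3K36 methylation, was nearest at -0.88 (limma adjusted p = 0.072). Tet3, the maternal 5-methylcytosine oxidase, was 85.3, 94.4 and 79.01 FPKM in siMlx zygotes, against 133, 165 and 177 FPKM in siCtrl zygotes (-0.86 (limma adjusted p = 0.054)), and none of 11 tested DNA methylation genes passed. None of 26 tested histone variant and chaperone genes passed, with Asf1a, a histone H3-H4 chaperone, nearest at 1.19 (limma adjusted p = 0.067).

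**Figure D3:**
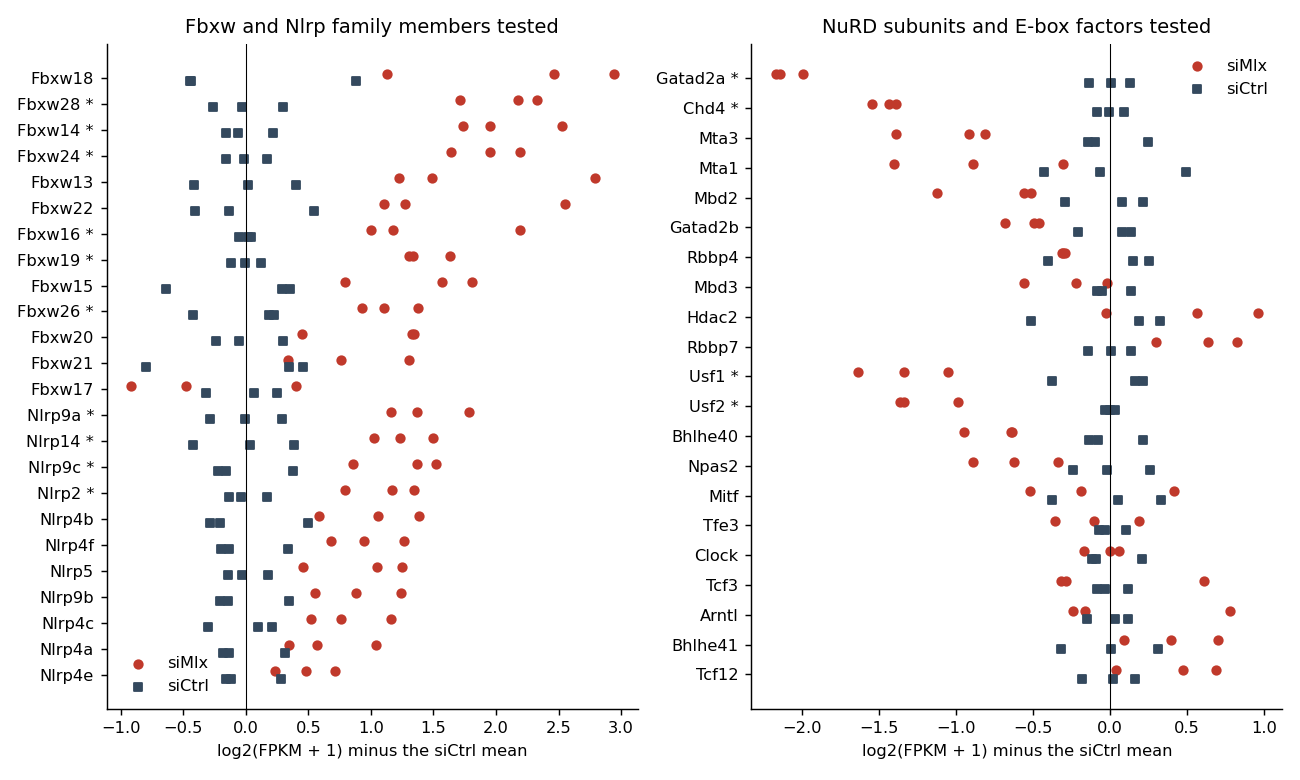
Level of each member in each library as log2(FPKM + 1) minus the siCtrl mean, with siMlx libraries as red circles above siCtrl libraries as dark squares and an asterisk at an adjusted p under 0.05. Left, the 13 Fbxw and 11 Nlrp genes tested, of which 11 and 10 have all siMlx libraries above all siCtrl libraries; right, the 10 NuRD genes and 11 E-box factors tested, with Gatad2a, Chd4, Usf1 and Usf2 lower in siMlx.

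Other large falls were of varied function. Srf, the serum response factor, was 4.67, 5.5996 and 4.64 FPKM in siMlx zygotes, against 13.4, 10.8 and 19.9 FPKM in siCtrl zygotes (log2 fold change -1.35, SE 0.25, limma adjusted p = 0.041). Zmiz2, a coactivator with a SUMO ligase-like zinc finger, was 5.27, 5.23 and 6.41 FPKM in siMlx zygotes, against 17.9, 18.8 and 23.8 FPKM in siCtrl zygotes (log2 fold change -1.66, SE 0.20, limma adjusted p = 0.017). Its groups did not overlap, and it was 40.9, 15.5 and 20.6 FPKM in siEtv5 zygotes and 7.29, 12.1 and 13.2 FPKM in siRfx1 zygotes. Of 73 tested genes of RNA polymerase II, Mediator and general factors, 0 rose and 3 fell: Med20 at -1.21 (limma adjusted p = 0.032), Med23 at -1.13 (limma adjusted p = 0.043) and Taf4a at -1.10 (limma adjusted p = 0.038). Med20 was at 0.26 with siEtv5 zygotes as the control. Gnb2, a G protein beta subunit, was 6.27, 5.81 and 3.52 FPKM in siMlx zygotes, against 16.2, 15.5 and 21.1 FPKM in siCtrl zygotes (log2 fold change -1.60, SE 0.25, limma adjusted p = 0.032). Csk, the kinase that restrains Src kinases, was 3.36, 4.28 and 4.21 FPKM in siMlx zygotes, against 7.75, 16.04 and 13.5 FPKM in siCtrl zygotes, a log2 fold change of -1.39 (limma adjusted p = 0.043). Osgin1, an oxidative stress response gene, was 8.05, 7.06 and 9.23 FPKM in siMlx zygotes, against 22.2, 19.2 and 32.1 FPKM in siCtrl zygotes (-1.46 (limma adjusted p = 0.034)). Susd3 and Afap1l2 were at -1.70 (limma adjusted p = 0.024) and -1.40 (limma adjusted p = 0.024). Ptbp1, a polypyrimidine tract splicing repressor that overlaps BC005764 and E130317F20Rik, was at -1.39 (limma adjusted p = 0.032), and Clk2, a kinase of SR splicing factors, at -1.34 (limma adjusted p = 0.041). All of these had every siMlx library below every siCtrl library, which the rule required of the largest falls. Edc4, a scaffold of mRNA decapping, fell by 1.27 on the log2 scale, the 1 change among 33 tested genes of maternal mRNA clearance. Rad21, a cohesin subunit, fell by 1.14, the 1 change among 25 tested NFY, KLF and pluripotency factors. Nup62 and Ranbp9, of the nuclear pore and transport list, fell by 0.94 and 1.13, with 0 rises among 40 tested, and each overlaps another gene. Rfx2, an X-box factor of the RFX family, was 1.51, 1.42 and 2.45 FPKM in siMlx zygotes, against 5.63, 6.06 and 6.29 FPKM in siCtrl zygotes (log2 fold change -1.34, SE 0.23, limma adjusted p = 0.039), the 1 change among 6 tested RFX genes.

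Families of oocyte genes were among the largest rises. The Fbxw genes of the F-box and WD40 kind are expressed in oocytes and form a cluster on chromosome 9, where 12 tested members lay between 109041968 and 109648603 of mm9. Fbxw28 (chr9:109225400-109242173, minus strand) was 786, 571 and 876 FPKM in siMlx zygotes, against 213, 144 and 169 FPKM in siCtrl zygotes (log2 fold change 2.07, SE 0.24, limma adjusted p = 0.017). Fbxw14 was 544, 468 and 809 FPKM in siMlx zygotes, against 163, 125 and 134 FPKM in siCtrl zygotes, and Fbxw24 was 783, 632 and 927 FPKM in siMlx zygotes, against 227, 181 and 200.2 FPKM in siCtrl zygotes. These 3 had 385 to 431% of the control mean, and no siMlx library overlapped a siCtrl library. Fbxw28 was 107, 356 and 207 FPKM in siEtv5 zygotes and 428, 387 and 266 FPKM in siRfx1 zygotes, all below the lowest siMlx library, although on another scale. In all 13 members tested, 6 rose and 0 fell, 11 had all siMlx libraries above all siCtrl libraries (84.6%, against 14.5% of all genes tested), and the median log2 fold change was 1.46. Per library the median member lay at 1.27, 1.31 and 2.19 in siMlx zygotes, against 0.17, -0.15 and -0.03 in siCtrl zygotes, with siMlx replicate 3 the highest. Fbxw17, the only tested member off chromosome 9, was at -0.33 (limma adjusted p = 0.62). Members of the cluster are near-identical, and the counting may have split their reads, so single members are uncertain.

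The oocyte NLRP genes, which encode leucine-rich repeat proteins with a NACHT domain, some of them required maternally for cleavage in mice, were higher as well. Of 11 tested, 4 rose and 0 fell, and 10 had all siMlx libraries above all siCtrl libraries (90.9%, against 14.5% of all genes tested), with a median of 0.96. Nlrp9a was 94.8, 82.3 and 127 FPKM in siMlx zygotes, against 44.5, 36.1 and 29.6 FPKM in siCtrl zygotes (log2 fold change 1.44, SE 0.24, limma adjusted p = 0.036), Nlrp14 was 109, 94.2 and 131 FPKM in siMlx zygotes, against 60.3, 46.9 and 33.97 FPKM in siCtrl zygotes, and Nlrp9c was 97.7, 68.3 and 109 FPKM in siMlx zygotes, against 48.8, 33.2 and 31.8 FPKM in siCtrl zygotes. Nlrp2, which overlaps Gm5065, was 11.6, 7.61 and 10.2 FPKM in siMlx zygotes, against 4.596, 3.86 and 3.53 FPKM in siCtrl zygotes (1.10 (limma adjusted p = 0.046)). Nlrp5, which encodes MATER of the subcortical maternal complex, did not pass at 0.92 (limma adjusted p = 0.076). Per library the median lay at 1.05, 0.58 and 1.24 in siMlx zygotes, against 0.31, -0.14 and -0.20 in siCtrl zygotes, and siMlx replicate 2 was the lowest of its group. The oogenesin genes Oog1, Oog3 and Oog4, leucine-rich repeat genes of the oocyte, had log2 fold changes of 1.54 (limma adjusted p = 0.035), 1.26 (limma adjusted p = 0.043) and 1.39 (limma adjusted p = 0.032). Oog1, among the most abundant of them, was 4128, 3475 and 5588 FPKM in siMlx zygotes, against 1668, 1211 and 1604 FPKM in siCtrl zygotes. The other 5 tested members of the oogenesin and Pramel family did not pass, with Oog2 at 0.99 (limma adjusted p = 0.051) and Pramef12 at -0.79 (limma adjusted p = 0.055), of opposite sign. C87977 and Gm13088, also among the largest rises, were at 1.72 (limma adjusted p = 0.025) and 1.95 (limma adjusted p = 0.017).

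Secreted and zona factors changed in part. Zp1, a zona pellucida glycoprotein, was 18.6, 11.98 and 20.8 FPKM in siMlx zygotes, against 8.22, 3.71 and 5.72 FPKM in siCtrl zygotes (log2 fold change 1.42, SE 0.30, limma adjusted p = 0.049). Bmp15, an oocyte growth factor, was 2501, 2226 and 3200.2 FPKM in siMlx zygotes, against 1317, 1050.3 and 1088 FPKM in siCtrl zygotes (log2 fold change 1.19, SE 0.22, limma adjusted p = 0.041), whereas Gdf9, its partner in signaling to cumulus cells, had 0.14 (limma adjusted p = 0.69). Of 11 tested genes of this list, 2 rose and 0 fell (median 0.71). Nlrp2 was the 1 rise among 17 tested genes of the subcortical maternal complex and other maternal effects (median 0.47). Spin1, a maternal chromatin reader that binds H3K4 trimethylation, was 3969, 4102 and 7339 FPKM in siMlx zygotes, against 1358, 1862 and 1289 FPKM in siCtrl zygotes (log2 fold change 1.73, SE 0.29, limma adjusted p = 0.037), the highest level among the named rises. Hes1, the Notch-responsive repressor, was 10.2, 12.8 and 3.88 FPKM in siMlx zygotes, against 1.66, 1.75 and 1.36 FPKM in siCtrl zygotes (log2 fold change 1.82, SE 0.37, limma adjusted p = 0.046), with siMlx replicate 3 well below its 2 partners. Ptp4a1, a protein tyrosine phosphatase that overlaps Gm13363, was 173, 387 and 169 FPKM in siMlx zygotes, against 77.8, 63.03 and 53.9 FPKM in siCtrl zygotes. Gps1, a subunit of the COP9 signalosome, was 18.9, 26.9 and 15.7 FPKM in siMlx zygotes, against 4.18, 5.36 and 6.04 FPKM in siCtrl zygotes. The log2 fold change of Gps1 was 1.77, but 0.46 with siEtv5 zygotes as the control. Usp17la, of a deubiquitinase family with near-identical copies, was 12.02, 7.04 and 16.7 FPKM in siMlx zygotes, against 4.07, 1.904 and 1.66 FPKM in siCtrl zygotes, the 1 rise among 5 tested Tdpoz and Usp17-like genes (median 0.91, with siCtrl replicate 1 above siMlx replicate 2). None of 5 Obox homeobox genes passed, with Obox5 at 0.80 (limma adjusted p = 0.098).

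Of 30 tested genes of the 2-cell program, which is normally transcribed at the first wave of genome activation, 2 rose and 0 fell. Zscan4c was 13.5, 11.4 and 14.2 FPKM in siMlx zygotes, against 7.07, 4.29 and 3.51 FPKM in siCtrl zygotes (log2 fold change 1.28, SE 0.26, limma adjusted p = 0.044), and Gm2022 was 8.18, 5.07 and 8.36 FPKM in siMlx zygotes, against 3.15, 1.81 and 1.61 FPKM in siCtrl zygotes (log2 fold change 1.36, SE 0.28, limma adjusted p = 0.046). Both belong to groups of near-identical copies. Dux, the factor that activates this program in mice, had 0.75 (limma adjusted p = 0.075). In 12 of the 30 all siMlx libraries were above all siCtrl libraries (40%, against 14.5% of all genes tested), and the median was 0.67. Per library it was 0.70, 0.42 and 0.64 in siMlx zygotes, against 0.39, -0.15 and -0.18 in siCtrl zygotes, so that siCtrl replicate 1 came close to siMlx replicate 2. Genes were also divided by their course in siEtv5 embryos, which are no part of the comparison, as a fold above 4 between the zygote and 2-cell stages with an adjusted p under 0.05. Of 1181 tested genes that fall between the stages, 37 rose (3.13%, against 1.26% of all genes) and 15 fell, with a median of 0.27, or -0.06 with the FPKM as deposited, where the median of all genes was -0.27. Of 1282 tested genes that rise between the stages, 18 rose and 11 fell, with a median of 0.01. Calls also moved with level. In the quintile of tested genes with the highest levels, 2.97% were called higher and the median was 0.23, against 0.28% and -0.07 in the lowest. The stage lists were not compared with genes of like level, so what level contributes to their shares was not tested.

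Zinc finger genes contributed 13 rises and 1 fall among 204 tested genes named Zfp, with a median of 0.11. The rises were 6.37%, whereas 1.26% of all genes tested rose and 1.34% fell. Their median exonic GC content was 45.3%, against 49.6% for all genes tested, and calls moved with GC content as described below. Zfp960 was 52.4, 52.3 and 64.2 FPKM in siMlx zygotes, against 23.3, 16.5 and 13.6 FPKM in siCtrl zygotes (log2 fold change 1.64, SE 0.23, limma adjusted p = 0.024), and Zfp932 was 76.1, 79.6 and 96.3 FPKM in siMlx zygotes, against 33.996, 25.6 and 23.1 FPKM in siCtrl zygotes. Zfp51 and Zfp97 were at 1.61 (limma adjusted p = 0.041) and 1.61 (limma adjusted p = 0.034). Zfp598, named here after its values were seen, was the fall. Many zinc finger genes are close copies in clusters, so that their reads may be split. Gm10324, Gm13152 and Gm4301, also among the largest rises, were at 1.91 (limma adjusted p = 0.017), 1.74 (limma adjusted p = 0.016) and 1.94 (limma adjusted p = 0.024), and Gm13152 overlaps Gm13139 and Znf41-ps.

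Genes for translation, mitochondria and protein turnover gave single changes in both directions. Cox17, which delivers copper to cytochrome c oxidase, was 20.01, 12.8 and 29.03 FPKM in siMlx zygotes, against 0, 0 and 4.9004 FPKM in siCtrl zygotes (log2 fold change 3.51, SE 0.65, limma adjusted p = 0.041), and 2 siCtrl libraries were listed at 0. Atpif1, the inhibitor of the mitochondrial ATP synthase, was 27.6, 21.97 and 31.04 FPKM in siMlx zygotes, against 7.57, 8.09 and 5.09 FPKM in siCtrl zygotes (log2 fold change 1.82, SE 0.23, limma adjusted p = 0.02). They were the 2 rises among 30 tested genes of mitochondrial import and assembly. Ndufa1, a complex I subunit, was 70.9, 62.2 and 70.01 FPKM in siMlx zygotes, against 20.9, 22.6 and 32.97 FPKM in siCtrl zygotes, the 1 rise among 63 tested oxidative phosphorylation genes (median 0.39, 0.09 with the FPKM as deposited). Eif3e, an initiation factor subunit, was 4.31, 4.44 and 4.27 FPKM in siMlx zygotes, against 0, 0.186 and 0 FPKM in siCtrl zygotes, so that it was nearly unlisted in the control. Ribosomal protein genes have many near-identical copies in the genome, and their reads may be split. Rps28 was 4.12, 1.52 and 2.71 FPKM in siMlx zygotes, with all siCtrl libraries listed at 0. Rpl29 was 8.43, 4.38 and 5.42 FPKM in siMlx zygotes, against 15.7, 25.4 and 15.4 FPKM in siCtrl zygotes. In all, 1 of 54 tested cytosolic ribosomal protein genes rose and 2 fell (median 0.00). Among 69 tested mitochondrial ribosomal protein genes Mrps18c alone rose, with a log2 fold change of 1.10 (limma adjusted p = 0.049). Of 37 tested proteasome genes, 3 rose and 2 fell. Psmd10, an assembly chaperone of the regulatory particle, was 58.4, 45.3 and 59.8 FPKM in siMlx zygotes, against 18.8, 13.9 and 18.8 FPKM in siCtrl zygotes. Psmb2, a subunit of the core particle, was 149, 127 and 180.3 FPKM in siMlx zygotes, against 58.02, 68.7 and 74.7 FPKM in siCtrl zygotes. Psmg3, a chaperone of core particle assembly, was lower at 1.97, 0.598 and 1.09 FPKM in siMlx zygotes, against 5.81, 5.303 and 5.66 FPKM in siCtrl zygotes (-1.62 (limma adjusted p = 0.037)). Psmd5, another assembly chaperone, was at 1.17 (limma adjusted p = 0.041), and the other fall was Psme4, named after its values were seen.

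Several groups gave few or no genes past the threshold. Hist1h2bk was the 1 rise among 49 tested clustered histone genes, by 1.18 (limma adjusted p = 0.041), and Slc35a3 the 1 rise among 117 solute carriers, by 1.49 (limma adjusted p = 0.046). Dnajc11 was the 1 fall among 52 chaperones, at -1.14 (limma adjusted p = 0.039), and Osgin1 the 1 change among 24 glutathione and antioxidant genes. None passed among 91 SR, hnRNP and spliceosome genes, a list that does not hold Ptbp1 or Clk2, 51 cell cycle genes, 48 ribosome biogenesis genes, 42 replication genes, 27 centrosome and cilia genes, 20 genes of oocyte translational control, 12 small RNA pathway genes, 11 ETS genes and 7 interferon response genes. The nearest to the threshold in these were Rbm15b at -1.09 (limma adjusted p = 0.053), Ccnb1 at 0.82 (limma adjusted p = 0.077), Nip7 at -0.85 (limma adjusted p = 0.078), Mcm2 at -0.87 (limma adjusted p = 0.052), Ift46 at 0.99 (limma adjusted p = 0.066), Piwil1 at -0.77 (limma adjusted p = 0.13), Elk4 at 0.84 (limma adjusted p = 0.11) and Mavs at -0.80 (limma adjusted p = 0.093). Ccnb1 was also the nearest in oocyte translational control.

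**Figure D4:**
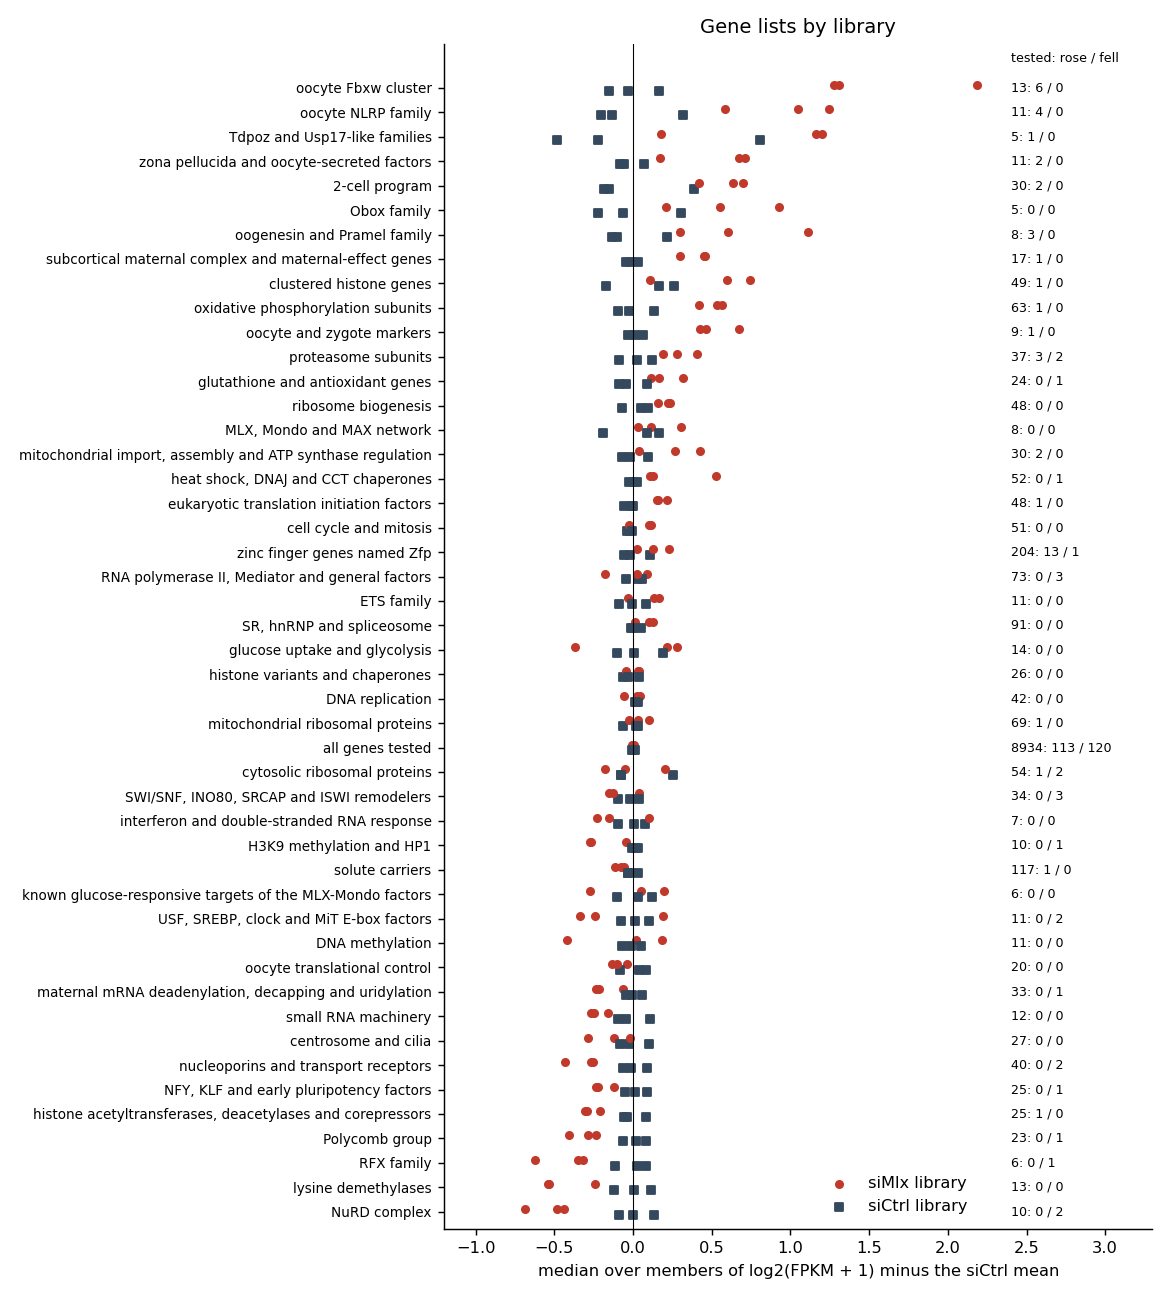
Median over the tested members of each gene list with at least 5, per library, as log2(FPKM + 1) minus the siCtrl mean, for siMlx (red circles) and siCtrl (dark squares) libraries. Figures at the right give the number tested, the number that rose and the number that fell at an adjusted p under 0.05. The Fbxw cluster is the highest in each siMlx library, and all genes tested lie at 0. The NuRD, lysine demethylase and RFX lists have the lowest median log2 fold changes and lie below 0 in all siMlx libraries. So do the Polycomb, acetylation and nucleoporin lists and several others.

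Transcript length and GC content moved with the comparison. From the shortest to the longest quintile of the genes tested, the median log2 fold change was 0.22, 0.19, 0.05, -0.07 and -0.20. Called genes followed, with 36, 29, 20, 12 and 4 higher and 8, 11, 22, 26 and 24 lower. All 3 siMlx libraries were above all siCtrl libraries in the 2 shortest quintiles and below them in the 2 longest. From the lowest to the highest quintile by exonic GC content, 53, 16, 8, 11 and 13 genes were called higher and 1, 6, 8, 32 and 44 lower. The medians of siMlx and siCtrl libraries overlapped in every GC quintile but the fourth, where all 3 siMlx libraries were lower. The median transcript was 1824 bases with 43.8% GC for genes called higher and 3287 bases with 55.1% GC for genes called lower, against 2700 bases with 49.6% GC for all genes tested. The Fbxw genes had a median length of 1497 bases with 44.1% GC, the Nlrp genes 3382 bases with 42.3% GC, and the NuRD genes 2472.5 bases with 52.7% GC.

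Coverage along transcripts also differed. In 644 multi-exon genes with long transcripts, the mean position of the coverage, from 0 at the 5′ end to 1 at the 3′ end, had a median of 0.406, 0.394 and 0.430 in siMlx zygotes and 0.540, 0.480 and 0.483 in siCtrl zygotes (exact permutation p = 0.1). It was 0.446, 0.496 and 0.433 in siEtv5 zygotes and 0.414, 0.433 and 0.406 in siRfx1 zygotes. With the trends on length and GC content removed from each library, an alternative chosen after seeing the data, 48 genes were higher and 35 lower, and 73 of the 192 were still called. The median then was 1.15 for the Fbxw genes, 0.86 for the Nlrp genes, -0.68 for NuRD, -0.24 for Polycomb and 0.40 for the 2-cell program. Gatad2a was at -1.80 and Chd4 at -1.14 (limma adjusted p = 0.013 and 0.037), and Fbxw28, Fbxw14 and Fbxw24 at 1.77, 1.75 and 1.62 (limma adjusted p = 0.030 each). Usf1 was at -1.34 (limma adjusted p = 0.046) and Usf2 at -1.13 (limma adjusted p = 0.051). Of 71 genes chosen by the naming rule that had passed, 39 still passed and 32 did not. Among the Nlrp rises, Nlrp14 (1.14), Nlrp9c (0.98) and Nlrp2 (1.03) missed the threshold at limma adjusted p of 0.050 to 0.065. Both rises of the 2-cell program missed it, Zscan4c at 1.05 (limma adjusted p = 0.066) and Gm2022 at 0.88 (limma adjusted p = 0.11). Among the other losses, Arid1a was at -0.65 (limma adjusted p = 0.11), Mrps18c at 0.70 (limma adjusted p = 0.13), Wiz at -0.90 (limma adjusted p = 0.103) and Fbxw16, another Fbxw rise, at 1.15 (limma adjusted p = 0.087). What length, GC content and coverage position contribute to the calls beyond this was not tested.

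**Figure D5:**
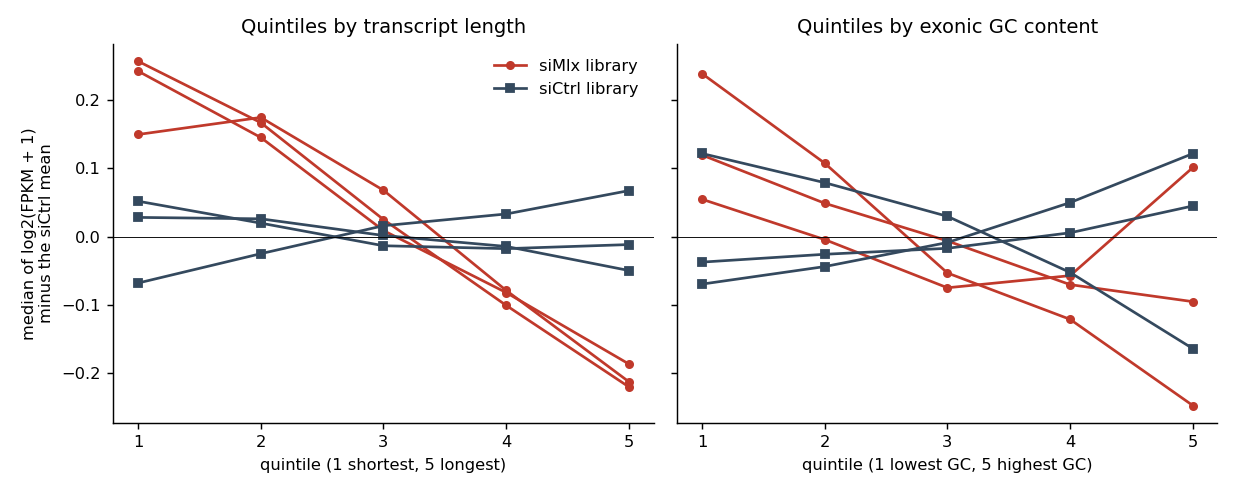
Median of log2(FPKM + 1) minus the siCtrl mean in quintiles of the genes tested, by transcript length (left) and exonic GC content (right), 1 line per library. The siMlx lines (red) run from above to below the siCtrl lines (dark) as length grows, from 0.150 to 0.257 in the shortest quintile to -0.221 to -0.187 in the longest.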

How the data were processed

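In late zygotes, polyadenylated RNA was primed with oligo-dT for reverse transcription, and the cDNA was amplified, sheared and made into libraries that do not mark the strand. The authors aligned reads to mm9 with STAR 2.5.2b and quantified RefSeq transcripts with StringTie (1.3.4 in the submitters' processing notes, 1.3.3b in the file headers). The deposited values are FPKM and coverage per transcript in attribute text. The read counts that the authors tested with edgeR were not analysed here.

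FPKM was summed over transcripts per gene (22619 named genes; 976 of 29306 transcripts without a gene name were left out). Aligned bases came from the ratio of coverage to FPKM. Reads carry no molecular identifiers, so depth does not count molecules. Median-ratio factors, taken from genes that reached 1 FPKM in all 6 libraries, put these on a common scale. After removal of genes whose mean was under 1 FPKM, log2(FPKM + 1) was compared by limma 3.58.1 (lmFit, then eBayes with trend; R 4.3.3). Benjamini-Hochberg adjustment ran over all genes tested, and a gene was called with a fold above 2 and an adjusted p under 0.05. Fold changes on this scale understate changes of low genes. For list members the adjusted p alone decided. Single values were compared by exact permutation tests, two-sided (scipy 1.17.1, Python 3.11.15).

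The genes named are Mlx and Psmc3ip, the 15 largest rises and 15 largest falls among called genes whose mean reached 5 FPKM and whose groups did not overlap, up to 4 members of each list with the largest change that passed (or the 1 with the lowest p), and the MLX network. Others are named as list members for contrast or where the text says so. One gene that the rule names is not reported here. The comparison, the gene lists and the rule were chosen with earlier results of these data known, so no list is independent evidence.

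Of 182491 introns in the files, 98.9% began with GT and ended with AG in the mm9 sequence used for GC content, and 0.390% did after a shift of 50 bp. Promoter windows are RefSeq entries of GRCm38.p6 and were matched by transcript, symbol or synonym, not by mm9 coordinates. Tested on simulated data for this comparison with 200 changed genes (8694 genes tested), the fit recovered 73.0% of the 63 tested with a fold of 2.5 and all of the 62 and 56 tested with folds of 4 and 8, with 9 false calls. The simulated noise was independent for each gene and library. It held no shared library effect and no length or GC trend, so these figures may not carry over to the real libraries. Each of these was tried in turn: FPKM as deposited, a filter at 5 FPKM or none, a pseudocount of 0.1, the replicate number as a block, a single fit over all 4 zygote groups, voom on fragments estimated from coverage, siEtv5 zygotes as the control, removal of the length trend by lowess and leaving out each library. Removal of the GC trend, of both trends, and dropping genes shorter than 2 kb were added after seeing the data.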

Additional observations from a re-analysis of the deposited data

How the results depend on the processing

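The count of 192 genes called was 8 with no filter, where 22619 genes were tested, 683 with the FPKM as deposited, 121 with all 4 zygote groups in a single fit, 327 with voom, 1 with siEtv5 zygotes as the control, 111 with the length trend removed and 83 with the length and GC trends removed. With the replicate number as a block it was 127 (87 higher, 40 lower). The deviations of same-numbered siMlx and siCtrl libraries correlated at 0.03, 0.18 and -0.09. Replicates 1 and 2 of siMlx correlated best with the siCtrl library of their own number, and siMlx replicate 3 with siCtrl replicate 1 (0.23). Such values, from deviations within groups of 3, cannot decide whether same-numbered libraries shared a collection. The count stayed within 1.5 times with a pseudocount of 0.1 (194), a filter at 5 FPKM (203), the GC trend removed (156) and genes of at least 2 kb (185), and ranged from 2 to 261 with 1 library left out. The cause of these shifts was not tested. Mlx was past the threshold with the FPKM as deposited (-1.68, limma adjusted p = 0.019) and with all 4 groups in a single fit (-1.52, limma adjusted p = 0.046). It missed it under the others, at adjusted p of 0.054 to 0.23 (limma), with log2 fold changes of -1.78 to -1.34 when a library was left out, -3.10 with a pseudocount of 0.1 and -2.96 with voom. The filter at 5 FPKM and the limit to 2 kb left it untested. With siEtv5 zygotes as the control, the direction turned for Kat8 (-0.03), Med20 (0.26), Mga (0.43), Mxd1 (-0.14), Nip7 (0.01), Psmc3ip (0.05) and Txnip (0.17). Some changes shrank in that fit without turning, such as Gatad2a from -2.10 to -0.70, Cox17 from 3.51 to 1.13 and Hist1h2bk from 1.18 to 0.19. Of the 190 called genes with a value there, 110 kept their direction with a fold above 2. Values near 0 turned elsewhere: Mga with the length trend removed (0.07), Mnt with voom (0.04), the length trend (0.11), the GC trend (0.04) or both removed (0.25), and Prm2 with the FPKM as deposited (-0.26), the length trend (-0.18) or both trends removed (-0.04). With a library left out, Mnt ranged from -0.16 to 0.10, Prm2 from -0.10 to 0.23 and Psmc3ip from -0.53 to 0.11. The other genes named by the rule kept their direction under every alternative that gave a value. Every alternative reuses libraries of the main fit, so a kept direction is no independent check. Depth limits Mlx, whose level rests on 0 to 487 aligned bases per siMlx library.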
